A study of Ptychodera flava with 8 samples.

Results

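The early gastrula and the late gastrula of the acorn worm Ptychodera flava, the start and the end of gastrulation, were compared through their 2 lists of ATAC-seq peaks. All peaks of both lists were members, 48416 at early gastrula and 64713 at late gastrula, so 113129 of the 202721 peaks in the 4 lists of the series. A peak was called matched when it overlapped a peak of the other list by at least 1 bp, early-only when an early gastrula peak had no such partner, and late-only when a late gastrula peak had none. The libraries came from whole animals at the early and the late gastrula stage, and the labels give no genotype, strain or agent that would set the groups apart. Each sample was made of 75000 cells. The jelly coat of the animals had been taken off chemically, and lysis, Tn5 transposition and PCR followed. Each stage had 2 libraries, and the labels do not say whether these came from separate cultures. The authors deposited 1 list per stage, so no difference between the stages has a replicate check, and the read depth behind a list is unknown.

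ATAC-seq marks accessible chromatin, because Tn5 inserts sequencing adapters mainly where DNA is not wrapped in nucleosomes. Promoters and active enhancers are the usual sites of such peaks. During gastrulation the single-layered blastula folds inward and the germ layers and the primitive gut take shape, with cells turning to different gene programmes. A list from whole animals mixes all of these cells, so a site open in fewer cells and a site less open in each cell cannot be told apart.

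Most sites of the early gastrula were still listed at the late gastrula, and the late gastrula list held many more sites of its own. Of the early gastrula peaks, 38424 were matched, or 79.4% (Wilson 95% interval 79.0 to 79.7), and 9992 were early-only, or 20.6%. Of the late gastrula peaks, 38946 were matched, or 60.2% (59.8 to 60.6), and 25767 were late-only, or 39.8%. There were thus 2.58 late-only peaks for each early-only peak, in lists whose lengths stood at 1.34 to 1. All intervals here cover the counting error of peaks only, since peaks of a list are not replicates and no p-value was computed.

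This excess of late-only peaks was not present at equal list length. When the late gastrula list was shortened to its 48416 peaks of highest enrichment, 16842 early-only and 16766 late-only peaks were counted, a ratio of 0.995. When it was shortened by score instead, which ranks peaks by how alike they were in the replicates, the counts were 14292 and 14068, a ratio of 0.984. The matched shares then were 65.2% and 65.4% by enrichment, and 70.5% and 70.9% by score. A ratio near 1 follows from equal lengths when nearly all matches are one to one, so it carries no information on gain or loss of sites. The matched share at a fixed length, in contrast, depended on how peaks were ranked. The 16297 late gastrula peaks that were removed held a larger share of late-only peaks than the whole list, 55.2% by enrichment and 71.8% by score.

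The enrichment of a peak is its signal over background as the authors deposited it, and peaks were ranked by it within their list, as a percentile from 0 to 100. The raw values of named sites are printed as deposited and are not compared between the lists. Unmatched peaks lay lower in their own list than matched peaks. The median percentile was 37.4 for early-only and 53.9 for matched early gastrula peaks. At late gastrula the medians were 37.0 for late-only and 60.7 for matched peaks. The deposited median enrichment was 7.24 for early-only against 8.44 for matched early gastrula peaks, and 6.80 for late-only against 8.62 for matched late gastrula peaks.

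**Figure D1:**
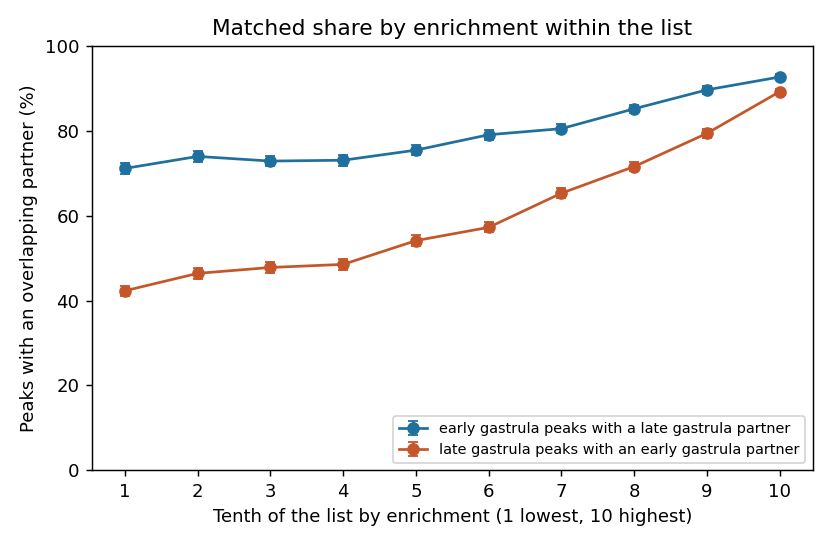
Share of peaks with an overlapping partner (vertical axis, %) by decile of the own list ranked by enrichment (horizontal axis, 1 lowest to 10 highest), for early gastrula (blue) and late gastrula (orange) peaks, with Wilson 95% intervals. The share rose from 71.1% to 92.7% at early gastrula and from 42.3% to 89.2% at late gastrula, so the lists differed most among peaks of low enrichment.

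The plot of matched share by enrichment shows that the rise was not even. At early gastrula the share stayed between 71.1% and 75.4% over the lower 5 of the 10 classes and reached 92.7% in the highest class. At late gastrula it climbed from 42.3% to 89.2% over the same classes. In the highest class the lists came within a few points of each other, with 354 early-only peaks among 4841 and 697 late-only peaks among 6471. Ranking by the deposited −log10 p, which also grows with read depth at the site, gave a steeper rise, from 50.4% to 97.9% at early gastrula and from 22.4% to 96.7% at late gastrula. Among the peaks of the maximum score of 1000 were 10.5% of early-only and 47.3% of matched early gastrula peaks. The same score was held by 12.6% of late-only and 57.4% of matched late gastrula peaks.

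Unmatched peaks were also narrower. The median width was 256 bp for early-only and 302 bp for matched early gastrula peaks. It was 247 bp for late-only and 293 bp for matched late gastrula peaks. The gap in width was present within each quintile of enrichment: in the lowest, 231 against 262 bp at early gastrula and 222 against 253 bp at late gastrula, and in the highest, 316 against 347 bp and 308 against 324 bp. Of peaks under 200 bp, 65.9% were matched at early gastrula and 39.5% at late gastrula. Of peaks of at least 600 bp, 94.2% and 87.5% were matched. A wide peak offers more bases to overlap, which was not corrected for.

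A few sites were split differently in the lists. In all, 39463 overlapping pairs were found, of which 36463 were one to one. An early gastrula peak overlapped 2 or more late gastrula peaks in 1006 cases, 2.62% of the matched early gastrula peaks. The reverse occurred in 511 cases, 1.31% of the matched late gastrula peaks. At equal list length these shares were 1.68% and 1.44% by enrichment and 2.07% and 1.45% by score. Such peaks were wide, with medians of 640 bp and 614 bp. An early gastrula peak of 1141 bp on scaffold 17 (23116981 to 23118121) and another of 828 bp on scaffold 21 (2385652 to 2386479) each met 4 late gastrula peaks, and a late gastrula peak of 1265 bp on scaffold 19 (1407817 to 1409081) met 4 early gastrula peaks. These 3 peaks were singled out after their values were seen.

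Few unmatched peaks lay directly beside a peak of the other list. The nearest late gastrula peak lay a median of 3101 bp from an early-only peak, and 7.45% of early-only peaks had one within 100 bp. For late-only peaks the median distance to the early gastrula list was 3982 bp, and 5.08% lay within 100 bp. These medians depended on the lists: at equal length they were 3239 and 6564 bp by enrichment and 4220 and 3752 bp by score, the opposite order, and at an irreproducible discovery rate (disagreement between replicates) of at most 0.01 they were 5259 and 6913 bp. Within 1000 bp the shares were 31.3% and 24.1%. Beyond 50000 bp lay 307 early-only and 1070 late-only peaks, while 7 early-only and 15 late-only peaks were on scaffolds with no peak of the other list. Matched peaks were closer to further peaks of the other list: their nearest peak that did not overlap them lay a median of 1437 bp away at early gastrula and 2175 bp at late gastrula.

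**Figure D2:**
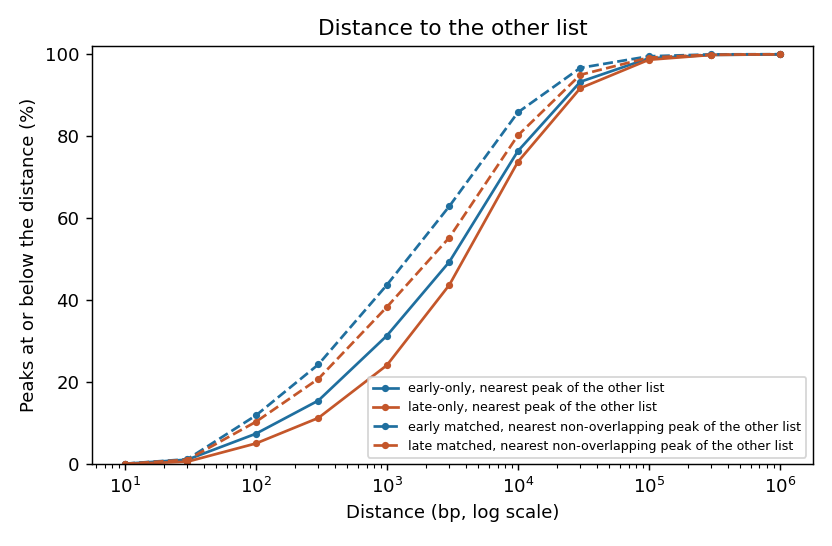
Share of peaks (vertical axis, %) at or below a distance to the other list (horizontal axis, bp, log scale), for early-only (blue) and late-only (orange) peaks as solid lines and for matched peaks, to their nearest non-overlapping peak, as dashed lines. At 1000 bp the solid lines stood at 31.3% and 24.1% and the dashed lines at 43.7% and 38.4%.

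Unmatched peaks of low enrichment lay closer to the other list than those of high enrichment. Early-only peaks in the lowest quintile of enrichment had a median distance of 708 bp to the late gastrula list, against 9138 bp in the highest quintile. For late-only peaks these medians were 1318 and 10266 bp. The distance to the nearest peak of the own list, taken over all peaks, followed enrichment in the same direction. It was 660 bp in the lowest and 7018 bp in the highest quintile at early gastrula, and 630 and 5277 bp at late gastrula. The order therefore belongs to both lists as a whole and was not particular to unmatched peaks.

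The most enriched early-only peak, with an enrichment of 26.3, lay on scaffold 62 (732311 to 732649), 5396 bp from the nearest late gastrula peak. The third, on scaffold 1 (61229380 to 61229789), had an enrichment of 22.9 and no late gastrula peak within 60267 bp. The second, with 25.5 on scaffold 103 (52020 to 52311), was on a scaffold without any late gastrula peak. Among late-only peaks the highest enrichment was 26.0, on scaffold 11 (37128883 to 37129343), 57449 bp from the early gastrula list. A late-only peak on scaffold 22 (24229942 to 24230240) followed with 23.7 and a distance of 78706 bp. The third, on scaffold 15 (22308427 to 22308769) with 23.6, had another late gastrula peak 74 bp away and the nearest early gastrula peak at 7730 bp. These values lie near the top of their lists, whose maxima were 29.97 and 32.28. The early-only peaks named here, and the late-only peak on scaffold 11, overlapped peaks of both the early blastula and the mid gastrula list. The late-only peaks on scaffolds 22 and 15 overlapped a mid gastrula peak but no blastula peak.

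The most isolated sites differed in how close their own list came. The early-only peak farthest from the late gastrula list on a long scaffold was on scaffold 3 (4745206 to 4745660), 634792 bp away, with a neighbour in its own list only at 640945 bp. The late-only peaks farthest from the early gastrula list were also on scaffold 3, at 27776977 to 27777183 and 27984694 to 27984936, 825029 and 617276 bp away and 207510 bp from each other. Both had moderate enrichments of 8.23 and 9.49. The distances of the next early-only peaks were 493864 bp on scaffold 23 and 384715 bp on scaffold 11, and that of the next late-only peak was 603519 bp on scaffold 24, where another late gastrula peak lay 1756 bp away.

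Unmatched peaks were spread over the genome. On all 27 scaffolds of at least 10 Mb the late-only share exceeded the early-only share. Late-only outnumbered early-only peaks by 2.15 (scaffold 27) to 3.29 times (scaffold 24). Each of these scaffolds carried more late than early gastrula peaks. With nearly all matches one to one, that alone puts the late-only share higher, so the order of the shares carries no further information. The early-only share ran from 19.2% on scaffold 16 to 24.7% on scaffold 27, whose Wilson interval is wide because it carried 247 early gastrula peaks. The late-only share ran from 35.1% on scaffold 14 to 44.4% on scaffold 26. The interval of a scaffold held the share of the whole list on 25 of 27 scaffolds for early-only and 22 of 27 for late-only peaks. Late-only shares were lower where late gastrula peaks were denser, with a Spearman correlation of −0.73 over the 27 scaffolds, which differ in length and share both lists. The number of late gastrula peaks enters both the share and the density, so the correlation is in part built in. For the early-only share and the same density it was −0.29. Scaffold 14 was the densest, with 86.4 late gastrula peaks per Mb. At equal list length the late-only peaks outnumbered the early-only peaks on 12 of 27 scaffolds by enrichment and 17 of 27 by score, counts that equal lengths hold near the middle.

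**Figure D3:**
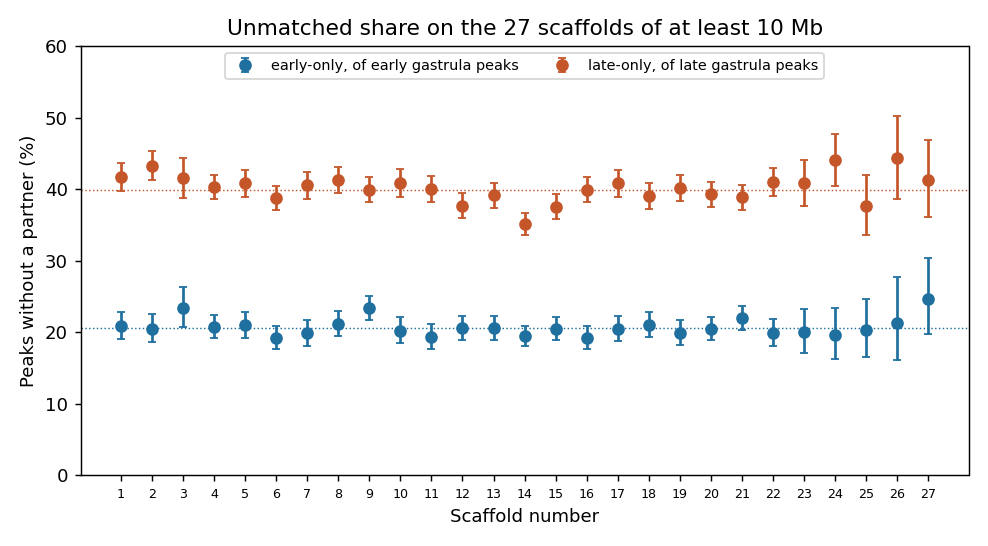
Share of peaks without a partner (vertical axis, %) on each of the 27 scaffolds of at least 10 Mb (horizontal axis, scaffold number), for early gastrula peaks (blue) and late gastrula peaks (orange), with Wilson 95% intervals and dotted lines at the shares of the whole lists, 20.6% and 39.8%. The groups do not overlap on any scaffold, and their order follows from the longer late gastrula list. The lowest late-only share, 35.1%, is on scaffold 14.

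On a finer scale, unmatched peaks had unmatched neighbours somewhat more often than matched peaks did. The nearest peak of the own list was also early-only for 23.8% of early-only and 18.1% of matched early gastrula peaks. It was late-only for 43.8% of late-only and 34.2% of matched late gastrula peaks. The longest unbroken run of late-only peaks held 19 peaks over 298271 bp of scaffold 24 (4541773 to 4840043). The next runs held 15 peaks in 119714 bp of scaffold 2 (13068410 to 13188123) and 14 peaks in 293925 bp of scaffold 22 (14570053 to 14863977). Runs of early-only peaks were shorter, with 7 peaks on scaffold 3 (3750676 to 4013396) and 7 on scaffold 22 (4662894 to 4849816). Early-only peaks were 20.6% of their list and late-only peaks 39.8% of a longer list. These shares alone favour longer late-only runs, and no expected run length was computed.

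Windows of 100 kb gave the same picture of scattered sites. Of 9522 windows with a peak summit of either list, 7881 held a late-only peak, 5587 an early-only peak and 4737 both. Windows without any peak were not counted. Late-only peaks were the more numerous in 6250 windows and early-only peaks in 1460. Over the whole lists there were 2.58 late-only peaks for each early-only peak, and windows were not counted at equal list length. The windows named here are the extremes of all 9522, and no expected count was computed for them. The window with most late-only peaks, on scaffold 8 (28400001 to 28500000), had 18 of them among 31 late gastrula peaks and 3 early-only among 16 early gastrula peaks. In windows on scaffold 4 (30500001 to 30600000) and scaffold 19 (39100001 to 39200000), 17 of 28 and 17 of 32 late gastrula peaks were late-only. Early-only peaks led in a window of scaffold 14 (22000001 to 22100000), with 8 of 12 early gastrula peaks against 1 late-only among 5 late gastrula peaks. In a window of scaffold 13 (18100001 to 18200000), 8 of 15 early gastrula peaks were early-only and 2 of 9 late gastrula peaks were late-only. The window with most early-only peaks, on scaffold 12 (4500001 to 4600000), was rich in both kinds, with 9 early-only and 11 late-only peaks.

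The lists of the early blastula (46275 peaks), the stage before gastrulation, and of the mid gastrula (43317 peaks) took no part in the matching and were used as a separate readout. Early-only peaks were sites already open in the blastula far more often than late-only peaks. A blastula peak overlapped 50.8% of early-only (49.8 to 51.8) and 16.4% of late-only peaks (15.9 to 16.8), against 74.9% and 75.2% of matched peaks. A mid gastrula peak overlapped 19.3% of early-only (18.6 to 20.1) and 30.1% of late-only peaks (29.6 to 30.7), against 81.6% and 81.4% of matched peaks. Thus 38.7% of early-only peaks met the blastula list but not the mid gastrula list, a pattern of 9.88% of late-only peaks. Conversely, 23.7% of late-only and 7.20% of early-only peaks met the mid gastrula list but not the blastula list. Neither list had a peak at 42.0% of early-only and 59.97% of late-only peaks, against 8.10% and 8.12% of matched peaks.

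**Figure D4:**
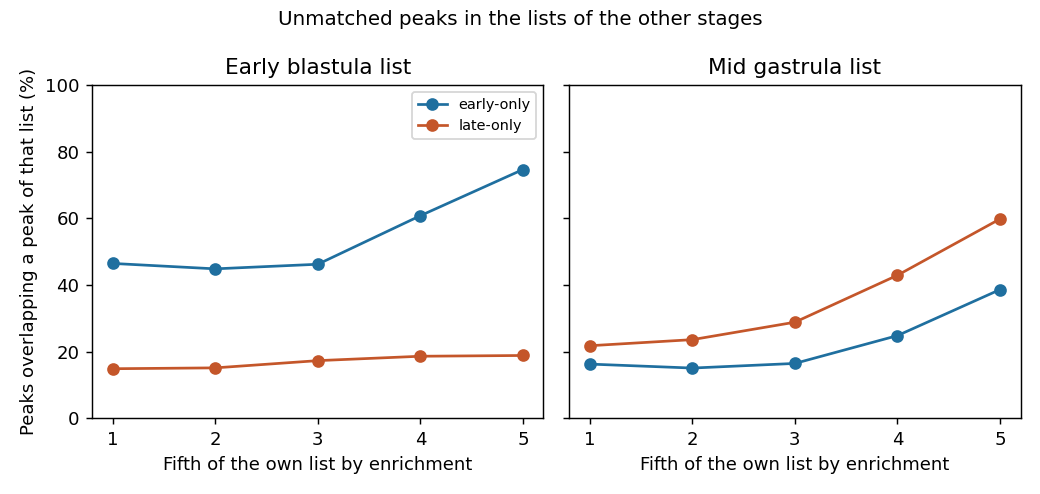
Share of early-only (blue) and late-only (orange) peaks that overlapped a peak of the early blastula list (left) and of the mid gastrula list (right), in % on the vertical axes, by quintile of enrichment in the own list on the horizontal axes, 1 lowest to 5 highest. In the highest quintile a blastula peak was found at 74.6% of early-only and 18.8% of late-only peaks, and a mid gastrula peak at 38.6% and 59.8%.

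The difference at the blastula was widest in the upper quintiles of enrichment. From the lowest to the highest quintile, the blastula list met 46.4%, 44.8%, 46.2%, 60.8% and 74.6% of early-only peaks. It met 14.9%, 15.1%, 17.3%, 18.6% and 18.8% of late-only peaks. Over the lower 3 quintiles the gap thus did not widen. For matched early gastrula peaks the shares in the lowest and highest quintile were 61.3% and 89.8%. The blastula difference was no smaller at equal list length, with 56.9% of early-only and 17.2% of late-only peaks by enrichment and 52.6% and 18.1% by score. The mid gastrula difference was not kept by enrichment, where 41.0% of early-only and 34.5% of late-only peaks met the mid gastrula list, the opposite order. Shortening by score gave 25.4% and 44.6%. Only the late gastrula list was shortened, so early gastrula peaks whose partner was cut were counted as early-only. Early-only peaks thus rose from 9992 to 16842 by enrichment and 14292 by score. Matched peaks met both other lists more often, so these shares do not check the early-only class of the whole lists.

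At the 36463 one-to-one pairs, the order of sites by enrichment was largely kept from the early to the late gastrula. The percentiles in the 2 lists had a Spearman correlation of 0.83 over these pairs, which share a genome sequence and an assay but no library. A pair stood a median of 3.44 points higher in the late gastrula list, with quartiles of −3.96 and 14.2. Gains of more than 20 points were seen at 6057 pairs, 16.6%, and losses of more than 20 points at 2401 pairs, 6.58%. When percentiles were ranked anew among the pairs alone, gains and losses were 10.6% and 10.5% and the median shift was 0.13 points. With the late gastrula list shortened by enrichment, losses led, with 19.2% against 9.005% of pairs, and by score the shares were 10.7% and 9.67%. The cut by enrichment takes away the lowest late gastrula peaks, which lowers the percentile of those kept, while early gastrula percentiles stay. It thus favours losses by construction. A direction of shift for the pairs as a whole is therefore not given by these lists.

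**Figure D5:**
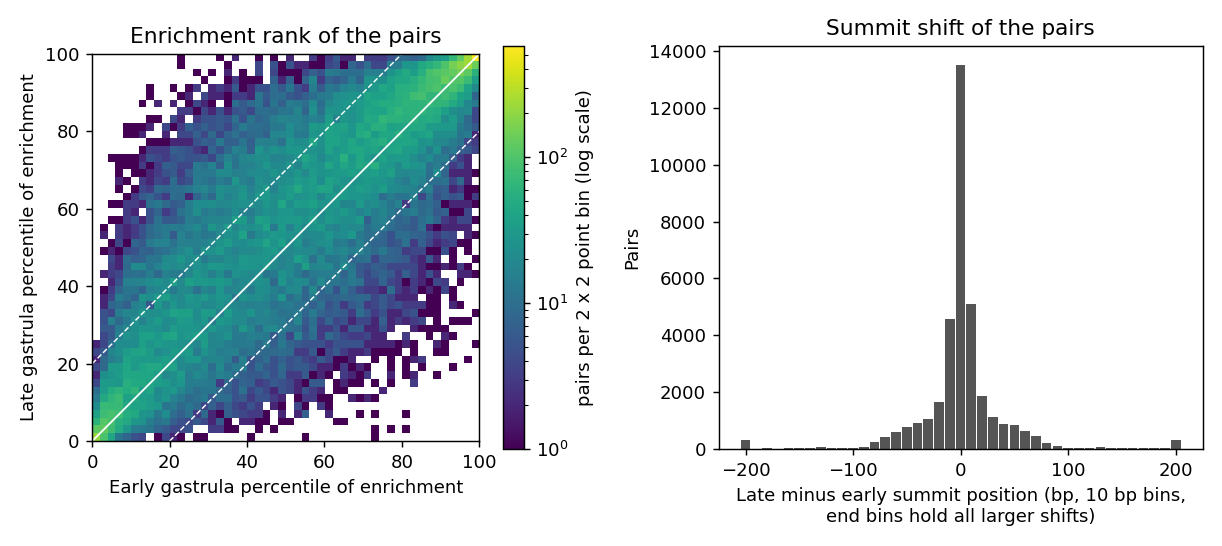
Left, the one-to-one pairs by percentile of enrichment in the early gastrula list (horizontal axis) and the late gastrula list (vertical axis), coloured by pairs per bin on a log scale, with the diagonal as a solid line and shifts of 20 points as dashed lines. Right, number of pairs (vertical axis) by late minus early summit position (horizontal axis, bp), where 55.3% of pairs lie within 10 bp of 0.

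The pairs that changed rank were read against the other stages. The 6057 gaining pairs had a median percentile of 35.6 at early gastrula and 68.9 at late gastrula, and where a mid gastrula peak overlapped the early gastrula peak of the pair, its median percentile was 52.8 in that list. The 2401 losing pairs went from 68.5 to 35.3, with 47.2 at mid gastrula. A mid gastrula value between both ends was found at 75.5% of the gaining and 70.7% of the losing pairs that had one, against 34.4% of the pairs within 20 points. The wider interval of the first groups holds more values by construction, so nothing is read from these shares. At the early blastula the gaining pairs stood at 42.2 and the losing pairs at 67.6, among those that had a blastula peak. Such a peak was present at 60.6% of gaining, 78.1% of losing and 77.1% of the other pairs. Blastula overlap of matched early gastrula peaks rose with rank, from 61.3% in the lowest to 89.8% in the highest quintile. Gaining pairs had started at a lower rank. A mid gastrula peak was present at 77.6% of gaining, 70.8% of losing and 82.9% of the other pairs. Whether these shares differ beyond the starting rank was not tested. The early and late gastrula values chose these groups, so only the blastula and mid gastrula values are separate readouts, and a site picked for a low or high rank tends to lie nearer the middle in any other list.

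The pair with the largest gain, on scaffold 23 (17553559 to 17553718 in the early gastrula list), moved from percentile 22.3 to 98.7, with deposited enrichments of 6.20 and 18.4. Its width went from 160 to 373 bp, its summit moved by 7 bp, and it stood at 92.2 at mid gastrula. A pair on scaffold 12 (30343320 to 30343617) rose from 15.8 to 90.9 with its summit on the same base and stood at 66.6 at mid gastrula. A pair on scaffold 23 (6483273 to 6483789) rose from 14.2 to 89.2 and stood at 81.4 at mid gastrula. All 3 had no overlapping blastula peak.

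The largest loss was on scaffold 6 (25106191 to 25106588), from percentile 80.7 to 2.11, with deposited enrichments of 11.3 and 3.50 and width from 398 to 253 bp. This site stood at 92.9 in the blastula and 34.9 at mid gastrula. The second, on scaffold 6 (9802048 to 9802424), fell from 96.5 to 20.1 after 98.6 in the blastula and 62.9 at mid gastrula. The third, on scaffold 18 (24491475 to 24491694), fell from 93.1 to 18.7 after 89.7 in the blastula and 42.9 at mid gastrula. At these 3 sites the mid gastrula value lay between those of the early and the late gastrula. Sites chosen for the largest loss leave little room outside that span, so nothing is read from this.

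Some sites were at the very top of both lists. On scaffold 35 the pair at 125878 to 126181 had enrichments of 29.6 and 31.6, on scaffold 57 the pair at 745254 to 745608 had 29.2 and 32.3, and on scaffold 2 the pair at 2129389 to 2129776 had 29.0 and 30.7. Their summits differed by 3, 11 and 1 bp. In the blastula and mid gastrula lists the lowest percentile of the 3 was 99.9.

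Rank changes of pairs differed with the unmatched peaks nearby. Among 3637 pairs with an early-only but no late-only peak within 5000 bp, the median shift was 8.07 points, with gains at 24.9% and losses at 4.15%. Among 12163 pairs with a late-only but no early-only peak within that distance, it was 1.33 points, with gains at 12.5% and losses at 8.66%. At the 17953 pairs with neither it was 4.12 points, and at the 2710 pairs with both it was 3.79 points. When ranked anew among the pairs the 4 medians were 3.64, −2.10, 0.76 and 0.42 points, in the same order. The median shifts of pairs beside both kinds and beside neither thus lay close. Their early gastrula percentiles did not, with medians of 29.4 and 63.7. Over all pairs the median shift varied with early gastrula rank, from 10.8 points in quintile 2 to −0.12 in quintile 5. Like medians therefore do not show that these groups behaved alike. This split was chosen after the lists had been seen, and the distance to other peaks goes with enrichment in both lists.

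Peak edges and summits of the pairs moved little. The median width was 298 bp at early gastrula and 293 bp at late gastrula, and the median change was −1 bp, with 50.9% of pairs narrower and 48.0% wider at late gastrula. Width went with rank: gaining pairs widened by a median of 18 bp, and losing pairs changed by −34 bp, with 78.6% of them narrower. The shift of the left edge and of the right edge each had a median of 0 bp. In 29.9% of pairs the late gastrula peak lay inside the early gastrula peak, and in 28.5% the reverse was true.

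The summit, the position of highest signal in a peak, differed by a median of 9 bp between the members of a pair. It was on the same base in 3376 pairs, 9.26%, within 10 bp in 55.3% and within 50 bp in 86.5%. It had moved to a higher coordinate in 16601 and to a lower one in 16486 pairs, so no direction prevailed. Summit shifts of more than 100 bp were found at 1373 pairs, 3.77%, and most of them were in wide peaks. Their share was 0.15% for early gastrula widths of 200 to 300 bp, 7.57% for 400 to 600 bp and 16.1% from 600 bp. These pairs had a median early gastrula width of 501 bp. Narrow overlapping peaks leave little room for such a shift, so the rise with width is in part set by the widths themselves. The share of such shifts fell from 5.75% in the lowest to 1.58% in the highest quintile by the lower percentile of the pair.

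The largest summit shift was 849 bp, in a pair of 1332 and 1269 bp on scaffold 13 (29336128 to 29337459), whose left edge moved by 21 bp and right edge by −42 bp. A second pair on scaffold 13 (13671431 to 13672431) had a shift of 667 bp with widths of 1001 and 1000 bp and percentiles of 81.3 and 82.3. In these 2 pairs the outline of the peak was kept while its highest point lay at the other end. The pair on scaffold 8 (28500659 to 28501633) had a shift of −688 bp and was 394 bp narrower at late gastrula.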

How the data were processed

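ATAC-seq peaks of Ptychodera flava at early and late gastrula were compared, 2 libraries and 1 deposited list per stage. Of tools, the submitters' processing notes list Bowtie2, MACS2 and bedtools, with neither version nor setting. Nothing on the genome build, duplicate reads or a shift for the Tn5 cut was found there, so these steps are not given in the sources used. Whether peaks were called per library or on pooled libraries is not given either. The lists have 12 columns and no header. Read in the layout of the IDR tool (irreproducible discovery rate between replicates), the authors deposited a fold enrichment over background, a −log10 p-value, a score of at most 1000 derived from the IDR, a further score holding −log10 of the IDR, and a summit offset in bp. The highest IDR in either list was 0.100, so peaks beyond that threshold enter neither. Total counts and depth are unknown, and depth and replicate agreement affect the length of a list. The files hold no value per library. No expression is measured, so the stage labels could not be checked against marker genes.

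From these lists, peaks were matched at an overlap of at least 1 bp. Enrichment was turned into a percentile within the list, with ties at their mid-rank. Shares have Wilson 95% intervals for counting error, and no test was run. The longer list was shortened to equal length by enrichment, or by score with ties by −log10 p. Other alternatives were an overlap of 50% of the shorter peak, peaks up to 100 bp apart, windows of 200 bp around summits, an IDR of at most 0.01, scaffolds of at least 10 Mb, ranking by −log10 p, and every overlapping pair. Ranking among the pairs alone, the use of the blastula and mid gastrula lists, and the split by unmatched neighbours were added after the data had been seen. The sites named are the 3 that lead each category: enrichment and distance of unmatched peaks, gain, loss, summit shift and joint rank of pairs, and counts per 100 kb window. Positions are 1-based. Genes and sequence are not used here, since the lists name no build. Members and lists were chosen with earlier results of these data known. The matching was tested on simulated data, crowded lists included. No column of per-sample values was left unused (0). Computations ran in Python (3.11.15) on pandas (2.3.3) and NumPy (2.4.6), intervals came from SciPy (1.17.1), and plots from Matplotlib (3.10.9).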

Additional observations from a re-analysis of the deposited data

How the results depend on the processing

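At equal list length the number of late-only per early-only peak, 2.58, became 0.995 by enrichment (interval 0.974 to 1.02) and 0.984 by score (0.962 to 1.01). Equal lengths hold this ratio near 1, so these values say nothing of direction. The median percentile shift of the pairs, 3.44 points, turned to −2.55 and −0.21. Matched shares were 65.2% and 65.4% for early and late gastrula by enrichment and 70.5% and 70.9% by score. Gaining pairs made up 9.005% and 9.67% and losing pairs 19.2% and 10.7%, so that losses led. By enrichment, the cut itself lowers the late gastrula percentiles, so the shift and the lead of losses there say nothing of direction. The share of unmatched peaks met by the mid gastrula list changed its order by enrichment, to 41.0% of early-only and 34.5% of late-only peaks. Early gastrula peaks whose partner was cut count as early-only there, so this does not check the whole-list classes. The order of the median distances changed by score, to 4220 and 3752 bp. The median percentile of early-only peaks was 24.0 by enrichment, and that of late-only peaks 36.1 and 39.3. At an IDR of at most 0.01, which left 25100 and 33212 peaks, the matched shares were 80.9% and 61.8%, the ratio 2.65, the percentiles 44.9 and 43.0, and gains and losses 10.7% and 5.68%. With peaks up to 100 bp apart, the shares were 80.9% and 62.2%, the ratio 2.64 and the percentiles 39.4 and 37.9. With summit windows, the shares were 77.1% and 57.7% and the ratio 2.47. Ranking by −log10 p gave percentiles of 24.1 and 28.3, and gains and losses of 22.8% and 8.20%. Ranking among the pairs alone gave 10.6% and 10.5%, and all overlapping pairs gave losses of 7.74%. Of 95 alternative values, 37 stayed within the counting interval and 54 moved out of it without reversing. The other 4, which reversed, are the ratios and median shifts at equal length. Only 21 of the 95 values could reverse at all. Changes of order between values, as for gains and losses or the median distances, do not enter this count. Beyond the effects of shortening given here, the cause of these moves was not tested.

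The median summit shift stayed at 8 to 9 bp under each alternative run. No paired analysis was possible because the 2 libraries of a stage enter a single list without a column of their own. Leaving out a replicate was not run for the same reason. Intervals cover counting error of peaks only, and the unknown depth limits any reading of list length.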
